A study of Homo sapiens with 8 samples.

Results

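In NB4 cells, a line derived from acute promyelocytic leukemia (APL), 99 genes were strongly lost when control cells were treated with all-trans retinoic acid (ATRA). These genes were selected on their measured levels in CPM, the count of a gene per 1000000 counts on genes in its library. A gene was taken when it had at least 5 CPM in each of the 4 untreated libraries and when both ATRA-treated control libraries lay at least 5-fold below the lower untreated control library. Of 37526 gene names listed for all 8 libraries, 9061 reached 5 CPM in each untreated library and 111 of these also met the second condition. The 12 among them that carry only a clone accession as a name were left out. The fall in control cells is therefore how the genes were found and is described without a test, whereas the ATRA-treated knockdown libraries played no part in the choice. The untreated knockdown libraries did, through the minimum of 5 CPM.

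The study asked how knockdown of KDM3B, a histone H3 lysine 9 demethylase, alters the response of APL cells to ATRA. RNA was sequenced from NB4 cells stably transduced with a lentiviral pLVX-shRNA2-puro vector, in 4 groups of 2 replicates. The scramble group carried the control vector, which the labels call empty and the methods call a scrambled shRNA, and the shKDM3B group an shRNA against KDM3B. Each was sequenced without ATRA and after 1 µM ATRA (scramble+ATRA and shKDM3B+ATRA), for 24 or 48 hours according to the labels, which do not say which time belongs to which library. The methods write the ATRA dose with a millimolar unit instead, so the dose is uncertain. Which of the target sequences given for KDM3B was used is not stated, and the transduced cells were selected with puromycin as stable derivatives of a line, with no word on whether they were clones. The methods state that the sequencing experiments had 2 replicates, with no word on separate cultures, so P-values measure the spread between these libraries, which may be technical.

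APL cells are promyelocytes whose maturation is held back by the PML/RARα fusion, a retinoic acid receptor that keeps its targets repressed. ATRA at pharmacological doses releases this block, the fusion protein is degraded and the cells mature along the granulocyte lineage. Promyelocytes are the stage at which primary (azurophil) granules are filled, so that myeloperoxidase and the granule proteases are made there and their transcripts are shut off as neutrophils mature.

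The counts on genes ranged from 9708739 to 33017787 read pairs a library. In the untreated libraries 8.49% to 9.62% of read pairs fell outside genes, and in scramble+ATRA replicate 1 9.36% did, but in the other ATRA-treated libraries 50.0% to 51.5% did. KDM3B stood at 189 CPM in each scramble library and at 76.4 and 85.1 in shKDM3B, at 189.8 and 113 in scramble+ATRA and at 51.3 and 55.3 in shKDM3B+ATRA, so both knockdown groups lay below their controls. The untreated files list 56470 names and the treated files 56609, so the genes were taken from the names they share.

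Promoters of a few granule genes are shown here because the members of these pairs were left at different levels in shKDM3B+ATRA cells. Cathepsin G (CTSG) and histidine decarboxylase (HDC) ended lower there than in scramble+ATRA cells, whereas MS4A3 and PRSS57 ended higher. For CTSG the margin to scramble+ATRA replicate 2 was small. Each run covers 250 bases before and 50 bases from the annotated start, read 5′ to 3′ on the strand of the gene, from RefSeq on GRCh38.p14. CTSG lies at chr14:24576201-24576500 (minus strand), HDC at chr15:50265677-50265976 (minus strand), MS4A3 at chr11:60056415-60056714 (plus strand) and PRSS57 at chr19:695403-695702 (minus strand). Capitals mark matches to the motifs AGGTCA (the element bound by retinoid receptors), TGTGGT (RUNX), and AACNGTC and AACNGCC (MYB), on either strand. The promoter of RNASE3, a granule gene that also ended higher, held none of these motifs and is not printed.
CTSG: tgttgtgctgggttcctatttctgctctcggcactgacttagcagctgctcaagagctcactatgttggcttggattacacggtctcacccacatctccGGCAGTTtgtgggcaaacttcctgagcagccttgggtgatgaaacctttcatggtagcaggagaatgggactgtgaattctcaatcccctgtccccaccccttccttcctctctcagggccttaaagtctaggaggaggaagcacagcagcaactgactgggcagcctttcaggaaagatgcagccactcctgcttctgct
HDC: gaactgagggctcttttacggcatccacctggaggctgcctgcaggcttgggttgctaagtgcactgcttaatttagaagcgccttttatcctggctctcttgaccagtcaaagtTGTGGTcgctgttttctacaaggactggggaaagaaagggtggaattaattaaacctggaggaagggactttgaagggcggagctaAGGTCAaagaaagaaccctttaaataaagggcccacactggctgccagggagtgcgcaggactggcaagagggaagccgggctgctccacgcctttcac
MS4A3: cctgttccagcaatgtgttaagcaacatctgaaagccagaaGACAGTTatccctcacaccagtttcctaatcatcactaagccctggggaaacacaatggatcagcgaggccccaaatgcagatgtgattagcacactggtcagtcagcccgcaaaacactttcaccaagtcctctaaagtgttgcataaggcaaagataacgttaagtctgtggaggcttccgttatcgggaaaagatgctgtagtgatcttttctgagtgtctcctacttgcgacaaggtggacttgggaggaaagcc
PRSS57: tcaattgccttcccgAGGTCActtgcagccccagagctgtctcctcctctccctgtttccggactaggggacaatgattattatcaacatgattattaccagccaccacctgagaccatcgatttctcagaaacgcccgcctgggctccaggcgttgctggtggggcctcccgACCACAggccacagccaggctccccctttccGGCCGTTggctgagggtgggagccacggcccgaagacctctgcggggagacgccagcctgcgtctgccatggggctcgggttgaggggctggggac
In CTSG the match begins 151 bases before the start and reads GGCAGTT, and in MS4A3 it begins 209 bases before the start and reads GACAGTT. HDC holds TGTGGT 135 bases and AGGTCA 49 bases before the start. PRSS57 holds AGGTCA at 235, the RUNX motif as ACCACA at 77 and the MYB motif as GGCCGTT at 46 bases before the start.

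Promoters of 60 of the 99 genes were in the RefSeq table. AGGTCA stood in 11.7% of these and in 13.9% of all 27305 promoters of the same length. TGTGGT was present in 15% against 13.1%, AACNGTC in 10% against 6.82% and AACNGCC in 16.7% against 13.1%, and these MYB motifs differ in a letter, so that no position matches both. The E-box CACGTG was present in 10% against 7.43%. TATAAA stood in 3.33% against 12%, in F3 and IGFBP4. The PU.1 motif GAGGAAGT was in 0 of the 60, against 2.54% of all promoters, and the C/EBP motif TTGCGCAA in 0, against 0.128%. A match is a description of letters and not of binding, and the lack of one says only that these letters are not in this window.

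**Figure D1:**
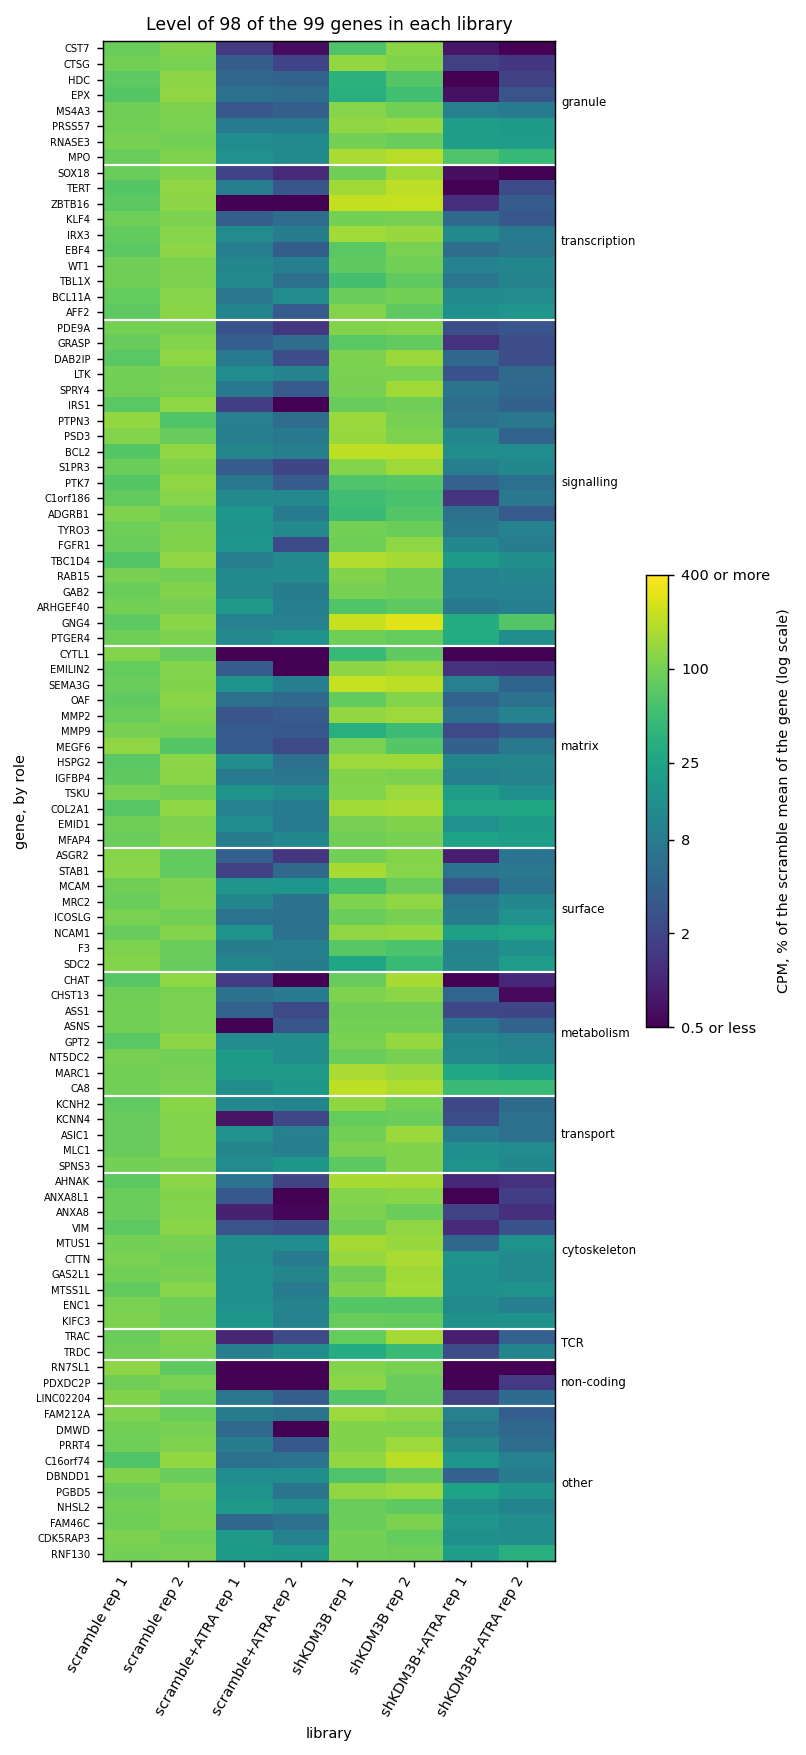
Level of each of 98 of the 99 genes (rows, grouped by role) in each of the 8 libraries (columns), as a percentage of the mean CPM in scramble, with color on a log2 scale. The 4 ATRA-treated columns are dark for nearly every gene in both scramble and shKDM3B cells, and MPO, GNG4 and CA8 stay the lightest in shKDM3B+ATRA.

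ATRA also lowered these genes in shKDM3B cells. Both shKDM3B+ATRA libraries lay below both shKDM3B libraries for 99 of the 99 genes, a count for which the share over all genes was not taken. In edgeR's quasi-likelihood test 99 of 99 were called lower, with a P-value under 0.05 and a fold change of at least 1.5, where 19.7% of the 12756 genes tested were called lower and 22.7% higher. Among the 9045 named genes with 5 CPM in each untreated library, as the choice required, 20.4% were called lower. With Benjamini-Hochberg adjusted p-values the 99 genes were again all called lower, beside 18.8% of all genes tested. The adjusted p ranged from 1.3e-08 for AHNAK to 0.021 for SDC2. The median log2 fold change was -3.71, against -0.004 over all genes tested, and the median in scramble cells, which the selection fixes to be low, was -3.43 against 0.02. By the measure that had chosen them in control cells, 87 of the 99 also lay at least 5-fold below the lower shKDM3B library in both shKDM3B+ATRA libraries, whereas 1.51% of the 9045 did.

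Untreated and ATRA-treated shKDM3B libraries also differed in the share of read pairs outside genes, 8.49% and 9.62% against 51.5% and 51.1%, and in these libraries the share and the treatment cannot be told apart. In bulk RNA, fewer cells of a type and less RNA per cell cannot be told apart.

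The mean level left with ATRA, as a percentage of the untreated mean, had a median of 8.53% in scramble cells and 7.42% in shKDM3B cells. It was larger in shKDM3B cells for 47 genes and smaller for 50. In scramble cells it was at most 18.5%, a ceiling the selection set, and in shKDM3B cells it reached 42.3%. The 12 genes that missed the 5-fold fall in shKDM3B cells were AFF2, CA8, F3, GNG4, MFAP4, MPO, PTGER4, RNASE3, RNF130, SDC2, SPNS3 and TRDC.

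**Figure D2:**
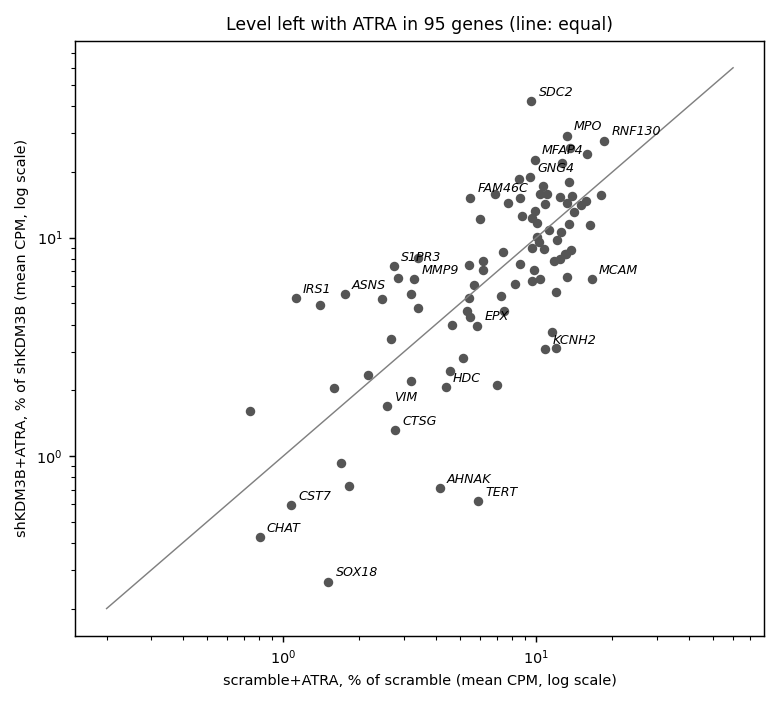
Mean level left with ATRA in scramble cells (horizontal axis, percent of scramble, log scale) against shKDM3B cells (vertical axis, percent of shKDM3B, log scale) for the 95 genes with counts in both treated groups, with the line of equality. The points scatter on both sides of the line, and MPO (13.2% against 29.3%) and SDC2 (9.57% against 42.3%) lie farthest up the vertical axis.

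Of the 99 genes, 8 were grouped as coding for granule proteins or marking granule-forming myeloid progenitors (MMP9, also a granule enzyme, was placed with the matrix genes), and all 8 fell with ATRA in shKDM3B cells. MPO codes for myeloperoxidase, which makes hypochlorous acid in the primary granule. It lies on chromosome 17 of hg38 from 58269855 to 58280935. MPO stood at 4329 and 5383 CPM in scramble, 705 and 575 in scramble+ATRA, 8348 and 9395 in shKDM3B and 3059 and 2142 in shKDM3B+ATRA. The 4 groups did not overlap, and shKDM3B+ATRA lay between scramble and scramble+ATRA. In shKDM3B cells MPO fell by 1.74 on the log2 scale (SE 0.17, edgeR adjusted p = 2.7e-05), and the ratio of shKDM3B+ATRA to scramble+ATRA means was 4.06.

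EPX, which codes for eosinophil peroxidase, lies near MPO on the same chromosome, from 58192726 to 58205174 on the opposite strand. Its levels were 146 and 284 CPM in scramble, 13.3 and 11.8 in scramble+ATRA, 72.1 and 114 in shKDM3B and 1.44 and 5.91 in shKDM3B+ATRA. In contrast to its neighbor, EPX was lower in the knockdown libraries than in their controls both without and with ATRA, with no overlap. Its log2 fold change with ATRA in shKDM3B cells was -4.61 (SE 0.44, edgeR adjusted p = 2.8e-05).

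HDC makes histamine and marks basophil and mast cell progenitors. It had 199.7 and 325 CPM in scramble, 12.0 and 11.0 in scramble+ATRA, 96.9 and 178 in shKDM3B and 0.721 and 4.94 in shKDM3B+ATRA. Like EPX it was lower in the knockdown in both states, and 2.06% of its shKDM3B level was left with ATRA against 4.38% in scramble cells. HDC fell with ATRA in shKDM3B cells with a log2 fold change of -5.54 (SE 0.53, edgeR adjusted p = 2.7e-05).

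CTSG, a serine protease of the primary granule, stood at 106 and 116 CPM in scramble and 149 and 125 in shKDM3B. With ATRA it had 3.97 and 2.15 CPM in scramble cells and 1.96 and 1.65 in shKDM3B cells. CTSG was thus higher in the knockdown without ATRA and lower with it, and the groups overlapped in neither state. With ATRA the margin to scramble+ATRA replicate 2 was small, 2.15 CPM against 1.96. The wider gap was to replicate 1, the treated library with 9.36% of read pairs outside genes. It fell by 6.21 on the log2 scale in shKDM3B cells (SE 0.21, edgeR adjusted p = 4.8e-08).

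PRSS57, another serine protease of neutrophil granules, and MS4A3, a membrane protein of granulocyte progenitors, kept more of their level in the knockdown. PRSS57 had 43.98 and 48.4 CPM in scramble, 3.55 and 3.61 in scramble+ATRA, 60.9 and 66.5 in shKDM3B and 9.68 and 8.72 in shKDM3B+ATRA. MS4A3 had 92.9 and 105 CPM in scramble, 3.02 and 3.70 in scramble+ATRA, 116 and 95.8 in shKDM3B and 9.06 and 8.04 in shKDM3B+ATRA. In ATRA-treated cells both genes were higher in the knockdown with no overlap, at ratios of 2.57 and 2.55. Their log2 fold changes with ATRA in shKDM3B cells were -2.75 (SE 0.17) and -3.59 (SE 0.17), with edgeR adjusted p of 1.5e-06 and 3.7e-07.

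RNASE3, the eosinophil cationic protein, was low at the start. It stood at 6.49 and 6.21 CPM in scramble and 6.33 and 5.45 in shKDM3B, and at 0.829 and 0.774 in scramble+ATRA and 1.34 and 1.26 in shKDM3B+ATRA. The treated groups did not overlap, and 22.1% of the level was left in shKDM3B cells against 12.6% in scramble cells. CST7, which codes for cystatin F, an inhibitor of lysosomal cathepsins, had 23.9 and 30.6 CPM in scramble and 17.3 and 33.6 in shKDM3B but 0.415 and 0.172 in scramble+ATRA and 0.206 and 0.0969 in shKDM3B+ATRA. Only 3 counts of CST7 remained over both shKDM3B+ATRA libraries, 0.595% of the shKDM3B level (95% exact Poisson interval 0.12% to 1.72%, counting error only).

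**Figure D3:**
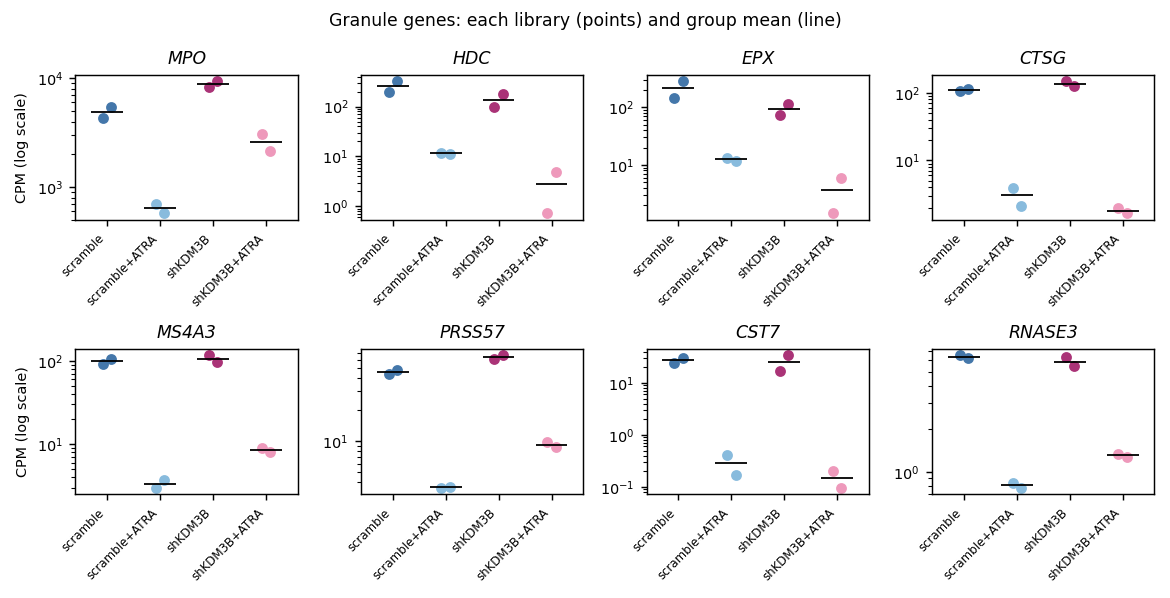
CPM (log axis) of the granule genes in each library (points) and the mean of each group (line), by group. MPO, PRSS57 and MS4A3 lie higher in shKDM3B+ATRA than in scramble+ATRA, whereas EPX, HDC and CTSG lie lower.

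Other azurophil granule genes moved in both directions. Of 24 listed from textbook knowledge, 20 could be tested in shKDM3B cells, and 7 were called lower and 7 higher with ATRA, beside 19.7% and 22.7% of all genes. The 99 genes hold CTSG, MPO, PRSS57 and RNASE3 of this list, and without them 3 of 16 were lower and 7 higher. ELANE, PRTN3 and AZU1, well-known granule proteins of the serine protease family beside CTSG, lay at or under 1.44 CPM in every library, so that they were near 0 before treatment too. Among 10 neutrophil markers, 6 were tested, 5 were called higher and 1 lower, and the latter was MMP9.

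Transcription factors and nuclear regulators made up 10 of the 99 genes, and all 10 fell with ATRA in shKDM3B cells, to between 0.266% and 15.8% of their level. WT1, a zinc-finger factor of immature blood cells that is often overexpressed in leukemia, had 83.4 and 94.0 CPM in scramble, 9.83 and 8.001 in scramble+ATRA, 69.7 and 85.3 in shKDM3B and 8.55 and 9.50 in shKDM3B+ATRA. The treated groups overlapped, with 10.0% left in scramble and 11.6% in shKDM3B cells. IRX3, a homeobox factor, stood at 69.1 and 102 CPM in scramble and 135 and 123 in shKDM3B, and at 10.6 and 7.14 in scramble+ATRA and 10.1 and 6.59 in shKDM3B+ATRA. IRX3 was higher in the knockdown only without ATRA, and with ATRA the groups overlapped. TBL1X, a subunit of the NCoR/SMRT co-repressor complex through which unliganded retinoid receptors repress, had 48.5 and 55.2 CPM in scramble and 29.1 and 40.3 in shKDM3B, and 5.98 and 3.10 in scramble+ATRA and 3.605 and 5.14 in shKDM3B+ATRA. It was lower in the knockdown without ATRA, and the treated groups overlapped. WT1, IRX3 and TBL1X fell in shKDM3B cells, with log2 fold changes of -3.07, -3.92 and -2.95 (SE 0.18, 0.20 and 0.26), with edgeR adjusted p of 1.4e-06, 4.8e-07 and 1.6e-05.

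TERT, the catalytic subunit of telomerase, was nearly gone in both treated groups, with 2 counts over both shKDM3B+ATRA libraries and 16 over both scramble+ATRA libraries, a ratio of 0.189 (95% exact interval 0.021 to 0.802, counting error only). Its levels were 5.93 and 11.5 CPM in scramble, 0.77 and 0.258 in scramble+ATRA, 13.3 and 18.1 in shKDM3B and 0 and 0.194 in shKDM3B+ATRA. Without ATRA the knockdown libraries were above the controls, and with ATRA the counts were too few to rank the groups. The 2 counts left were 0.619% of the shKDM3B level (95% exact Poisson interval 0.08% to 2.30%). SOX18, an SRY-box factor best known from blood and lymph vessels, had 1 count against 7, a ratio of 0.22 (interval 0.00488 to 1.71). It had 13.9 and 17.2 CPM in scramble and 14.7 and 24.1 in shKDM3B but 0.296 and 0.172 in scramble+ATRA and 0.103 and 0 in shKDM3B+ATRA, where the count left was 0.266% of the shKDM3B level (interval 0.01% to 1.44%).

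ZBTB16, which codes for PLZF, the partner of RARα in a rarer form of APL, had 6.14 and 10.6 CPM in scramble and 18.2 and 18.8 in shKDM3B. It was at 0 in both scramble+ATRA libraries and at 0.103 and 0.291 CPM in shKDM3B+ATRA, which was 3 counts or fewer in each library. Counted against 3 counts in each library, it was at least 38.3-fold lower with ATRA in scramble cells, and 1.07% of its level remained in shKDM3B cells. BCL11A, a zinc-finger repressor of fetal globin, stood at 20.1 and 28.8 CPM in scramble and 21.4 and 24.3 in shKDM3B, and at 1.72 and 3.10 in scramble+ATRA and 2.99 and 3.10 in shKDM3B+ATRA, with overlap in both states. It was the only one of the 99 genes on a list of 35 stem and progenitor markers, of which 26 were tested, 11 called lower and 4 higher in shKDM3B cells, beside 19.7% and 22.7% of all genes tested. The rest were EBF4, KLF4 and AFF2. AFF2 was higher in the knockdown with ATRA, at 5.05 and 5.82 CPM against 3.67 and 1.204, and KLF4, a factor of monocyte differentiation, kept 4.63% of its level in scramble and 3.996% in shKDM3B cells.

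Signalling genes were the largest group, with 21 members, all of which fell with ATRA in shKDM3B cells, to between 2.35% and 25.7% of their level. They included the receptor tyrosine kinases FGFR1, TYRO3, LTK and PTK7, receptors coupled to G proteins (PTGER4, S1PR3 and ADGRB1), adaptors (IRS1, GAB2 and C1orf186) and the apoptosis inhibitor BCL2. GNG4, a G protein gamma subunit, had the highest ratio of knockdown to control in ATRA-treated cells, 5.21. It stood at 10.9 and 17.3 CPM in scramble, 1.36 and 1.29 in scramble+ATRA, 32.5 and 40.6 in shKDM3B and 4.43 and 9.40 in shKDM3B+ATRA. Both knockdown groups lay above their controls, and without ATRA the ratio was 2.60. IRS1, the docking protein of the insulin receptor, had 12.4 and 21.7 CPM in scramble and 14.5 and 15.96 in shKDM3B, and 0.296 and 0.086 in scramble+ATRA and 0.927 and 0.678 in shKDM3B+ATRA. The untreated groups of IRS1 overlapped and the treated groups did not, at a ratio of 4.20 (95% exact interval 1.56 to 13.1) that rests on 16 counts against 6.

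S1PR3, a sphingosine-1-phosphate receptor, was higher in the knockdown in both states. It had 22.7 and 28.6 CPM in scramble and 29.9 and 39.9 in shKDM3B, and 0.888 and 0.516 in scramble+ATRA and 2.27 and 2.91 in shKDM3B+ATRA, where the ratio was 3.68. PTGER4, the prostaglandin E2 receptor EP4, stood at 19.4 and 22.5 CPM in scramble, 2.43 and 3.27 in scramble+ATRA, 19.0 and 17.2 in shKDM3B and 6.49 and 2.81 in shKDM3B+ATRA. PTGER4 was lower in the knockdown without ATRA, and with ATRA 1 of the knockdown libraries lay above both controls and the other between them. GNG4, IRS1, S1PR3 and PTGER4 fell with ATRA in shKDM3B cells, with log2 fold changes of -2.36, -4.20, -3.71 and -1.93 (SE 0.30, 0.31, 0.25 and 0.32). Their edgeR adjusted p were 1.9e-04, 5.3e-06, 3.2e-06 and 9.8e-04.

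C1orf186 (RHEX), an adaptor of erythropoietin signalling, was lower in the knockdown in both states. It had 61.4 and 90.0 CPM in scramble and 39.5 and 44.6 in shKDM3B, and 8.88 and 8.86 in scramble+ATRA and 1.03 and 5.52 in shKDM3B+ATRA. ARHGEF40, a guanine nucleotide exchange factor, stood at 51.9 and 52.5 CPM in scramble, 9.36 and 4.65 in scramble+ATRA, 34.4 and 39.4 in shKDM3B and 3.91 and 4.65 in shKDM3B+ATRA. It was lower in the knockdown without ATRA and overlapped with it, where the lower control library equalled the higher knockdown library to the digits shown. GAB2, a docking protein of growth factor receptors, had 31.8 and 39.9 CPM in scramble and 36.1 and 33.4 in shKDM3B, and 4.21 and 3.01 in scramble+ATRA and 3.50 and 3.49 in shKDM3B+ATRA, with overlap in both states. BCL2 was at 19.1 and 36.1 CPM in scramble and 58.6 and 56.6 in shKDM3B and at 2.90 and 2.41 in scramble+ATRA and 3.71 and 3.59 in shKDM3B+ATRA, so that the knockdown was higher in both states while the share left was 9.64% in scramble and 6.33% in shKDM3B cells.

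The cytoskeleton was represented by 11 genes, all called lower with ATRA in shKDM3B cells. AHNAK, a giant scaffold protein under the plasma membrane, had 145 and 245 CPM in scramble, 12.4 and 3.79 in scramble+ATRA, 329 and 316 in shKDM3B and 2.06 and 2.52 in shKDM3B+ATRA. The knockdown libraries were above their controls without ATRA and below them with it. AHNAK fell by 7.09 on the log2 scale in shKDM3B cells (SE 0.18, edgeR adjusted p = 1.3e-08), the largest fall among the genes with more than 3 counts left, and the share left was 0.711% against 4.15% in scramble cells. The scramble+ATRA replicates of AHNAK differed from each other more than those of shKDM3B+ATRA.

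VIM codes for vimentin, the intermediate filament protein of blood and mesenchymal cells. It stood at 321 and 515 CPM in scramble, 11.6 and 9.89 in scramble+ATRA, 388 and 556 in shKDM3B and 4.63 and 11.3 in shKDM3B+ATRA. Groups overlapped in both states, and VIM fell by 5.84 (log2, SE 0.35, edgeR adjusted p = 1.4e-06) in shKDM3B cells. MTSS1L, which bends membranes, had 195 and 285 CPM in scramble and 269 and 384 in shKDM3B, and 34.9 and 19.0 in scramble+ATRA and 34.4 and 36.1 in shKDM3B+ATRA, with overlap in both states. Opposite-strand exons cover 24.6% of the exon length of VIM and 64.3% of that of MTSS1L, and without strand information reads of the partners cannot be told apart. The near-identical annexin genes ANXA8 and ANXA8L1, between which counting can divide reads, kept 0.737% and 1.82% of their level in scramble cells and 1.61% and 0.726% in shKDM3B cells. Their single values are uncertain for this reason.

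Matrix and secreted proteins numbered 13 and surface proteins 8, and every member of both groups was called lower with ATRA in shKDM3B cells. MEGF6, a protein with EGF-like repeats, had 134 and 68.7 CPM in scramble and 105 and 69.3 in shKDM3B, and 3.49 and 2.24 in scramble+ATRA and 3.91 and 7.46 in shKDM3B+ATRA. MFAP4, a microfibril-associated protein, stood at 38.1 and 49.2 CPM in scramble, 3.61 and 4.99 in scramble+ATRA, 40.8 and 44.4 in shKDM3B and 10.5 and 8.92 in shKDM3B+ATRA. The untreated groups of MFAP4 overlapped while the treated ones did not, at a ratio of 2.26. MFAP4 fell in shKDM3B cells, with a log2 fold change of -2.10 (SE 0.17, edgeR adjusted p = 1.2e-05). MEGF6, COL2A1, MMP2, EMID1 and IGFBP4 were the others that lay higher in the knockdown with ATRA, at ratios of 1.98, 2.89, 2.48, 1.66 and 1.27.

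IGFBP4, which binds insulin-like growth factors, had 101 and 157 CPM in scramble and 144 and 138 in shKDM3B, and 10.2 and 8.86 in scramble+ATRA and 11.4 and 12.9 in shKDM3B+ATRA. OAF, a secreted protein, stood at 122 and 194 CPM in scramble, 9.30 and 7.83 in scramble+ATRA, 128 and 184 in shKDM3B and 6.70 and 9.79 in shKDM3B+ATRA, with overlap between knockdown and control in both states. IGFBP4 and OAF fell in shKDM3B cells, with log2 fold changes of -3.50 and -4.20 (SE 0.15 and 0.25), with edgeR adjusted p of 2.1e-07 and 1.3e-06. CYTL1, a cytokine-like secreted protein, was at 18.5 and 13.4 CPM in scramble and 7.20 and 12.3 in shKDM3B and at 0 in all 4 ATRA-treated libraries. Against 3 counts in each library it was at least 73.1-fold lower with ATRA in scramble and at least 32.6-fold lower in shKDM3B cells.

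MMP9, gelatinase B, is stored in the late granules of mature neutrophils, and its level went against the neutrophil markers that rose. It stood at 52.8 and 51.0 CPM in scramble, 1.78 and 1.63 in scramble+ATRA, 17.8 and 25.3 in shKDM3B and 1.13 and 1.65 in shKDM3B+ATRA. MMP9 was lower in the knockdown without ATRA, the treated groups overlapped, and it fell by 3.91 on the log2 scale in shKDM3B cells (SE 0.31, edgeR adjusted p = 9.2e-06). Opposite-strand exons overlap 18.4% of its exon length, among them those of a gene listed only for the treated libraries.

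SDC2, a cell-surface heparan sulfate proteoglycan, kept the largest share of its level in the knockdown. It had 40.8 and 30.1 CPM in scramble, 3.85 and 2.93 in scramble+ATRA, 9.31 and 16.2 in shKDM3B and 3.71 and 7.07 in shKDM3B+ATRA. The knockdown was lower without ATRA and overlapped the control with it, so that the share left of 42.3% against 9.57% came with a lower untreated level. SDC2 fell in shKDM3B cells, with a log2 fold change of -1.21 (SE 0.37, edgeR adjusted p = 0.021), the smallest fall of the 99 genes.

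MRC2, a collagen-binding lectin, stood at 181 and 223 CPM in scramble and 220.2 and 265 in shKDM3B, and at 22.5 and 12.2 in scramble+ATRA and 14.0 and 22.9 in shKDM3B+ATRA, with overlap in both states. Opposite-strand exons overlap 10.3% of its exon length. STAB1, a scavenger receptor of macrophages, had 43.3 and 28.7 CPM in scramble, 0.652 and 1.81 in scramble+ATRA, 60.4 and 42.3 in shKDM3B and 2.27 and 2.62 in shKDM3B+ATRA. The knockdown of STAB1 was higher with ATRA only, at a ratio of 1.99. MCAM, the adhesion molecule CD146, went the other way in both states, from 26.9 and 30.9 CPM in scramble and 16.4 and 24.8 in shKDM3B to 4.74 and 4.82 in scramble+ATRA and 0.824 and 1.84 in shKDM3B+ATRA. F3, tissue factor, which starts coagulation and whose expression by APL cells contributes to bleeding disorders, had 37.5 and 30.4 CPM in scramble and 23.9 and 20.5 in shKDM3B and 2.78 and 3.01 in scramble+ATRA and 3.40 and 4.85 in shKDM3B+ATRA. F3 was the only gene of the 99 that was lower in the knockdown without ATRA and higher with it.

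Metabolic enzymes made up 8 of the genes, and all fell with ATRA in shKDM3B cells. ASS1, argininosuccinate synthase of arginine synthesis, had 273 and 297 CPM in scramble, 12.1 and 6.19 in scramble+ATRA, 271 and 271 in shKDM3B and 6.08 and 5.82 in shKDM3B+ATRA. It was lower in the knockdown in both states, by small margins without ATRA. With ATRA the margin to scramble+ATRA replicate 2 was small too, 6.19 CPM against 6.08, and the wider gap was to replicate 1. ASNS, asparagine synthetase, stood at 22.3 and 23.8 CPM in scramble and 23.0 and 22.7 in shKDM3B, and at 0.118 and 0.688 in scramble+ATRA and 1.54 and 0.969 in shKDM3B+ATRA, where the knockdown was higher with a ratio of 3.12. GPT2, mitochondrial alanine transaminase, had 50.5 and 87.5 CPM in scramble and 71.6 and 95.4 in shKDM3B, and 8.65 and 9.38 in scramble+ATRA and 7.72 and 6.40 in shKDM3B+ATRA, where the knockdown was lower. ASS1, ASNS and GPT2 fell in shKDM3B cells, with log2 fold changes of -5.47, -4.14 and -3.53 (SE 0.15, 0.27 and 0.21), with edgeR adjusted p of 2.0e-08, 2.5e-06 and 1.3e-06. Same-strand exons of another gene overlap 49.3% of the exon length of ASNS.

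These 3 enzymes belong to a list of 30 genes of amino acid, one-carbon and polyamine metabolism. Of its 27 genes tested in shKDM3B cells, 13 were called lower and 2 higher with ATRA, beside 19.7% and 22.7% of all genes tested, and without the 3 enzymes 10 of 24 were lower. The median log2 fold change of the list was -0.51, a far smaller shift than that of the 3 genes. NT5DC2, a nucleotidase-domain protein, had 255 and 247 CPM in scramble and 224 and 258 in shKDM3B, and 47.8 and 34.2 in scramble+ATRA and 29.3 and 26.0 in shKDM3B+ATRA, where the knockdown was lower. CA8, a carbonic anhydrase-related protein, stood at 31.7 and 33.8 CPM in scramble, 4.62 and 5.76 in scramble+ATRA, 68.3 and 58.1 in shKDM3B and 15.8 and 14.7 in shKDM3B+ATRA. The knockdown of CA8 was higher in both states, at ratios of 1.93 and 2.94. CHAT, which makes acetylcholine, had 12.9 and 23.8 CPM in scramble and 15.4 and 30.3 in shKDM3B but 0.296 and 0 in scramble+ATRA and 0 and 0.194 in shKDM3B+ATRA, where 2 counts over both knockdown libraries were 0.424% of the shKDM3B level (95% exact Poisson interval 0.05% to 1.58%).

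Channels and transporters numbered 5, all lower with ATRA in shKDM3B cells. KCNH2, the potassium channel hERG, had 72.4 and 114 CPM in scramble, 10.6 and 9.64 in scramble+ATRA, 123 and 91.5 in shKDM3B and 1.96 and 4.65 in shKDM3B+ATRA. Untreated groups overlapped and treated groups did not, with 3.08% left in shKDM3B and 10.8% in scramble cells. ASIC1, an acid-sensing channel, stood at 18.1 and 24.6 CPM in scramble and 20.5 and 30.9 in shKDM3B, and at 3.14 and 1.98 in scramble+ATRA and 1.65 and 1.26 in shKDM3B+ATRA. MLC1, a membrane protein known from astrocytes, stood at 225 and 308 CPM in scramble and 283 and 297 in shKDM3B, and at 27.9 and 23.3 in scramble+ATRA and 37.7 and 33.9 in shKDM3B+ATRA. With ATRA the knockdown was lower for ASIC1 and higher for MLC1. KCNH2, ASIC1 and MLC1 fell, with log2 fold changes of -4.97, -4.11 and -2.98 in shKDM3B cells (SE 0.31, 0.31 and 0.13), with edgeR adjusted p of 1.8e-06, 6.6e-06 and 2.6e-07.

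Another 10 genes had no role in these groups, and all 10 fell with ATRA in shKDM3B cells. FAM46C (TENT5C), a poly(A) polymerase, had 62.5 and 73.6 CPM in scramble, 3.26 and 4.22 in scramble+ATRA, 60.8 and 72.1 in shKDM3B and 11.1 and 9.11 in shKDM3B+ATRA. It was higher in the knockdown with ATRA alone, at a ratio of 2.71. RNF130, a RING-finger protein, stood at 57.2 and 57.7 CPM in scramble and 57.4 and 53.7 in shKDM3B, and at 11.1 and 10.2 in scramble+ATRA and 12.1 and 18.8 in shKDM3B+ATRA, where the knockdown was higher. CDK5RAP3 had 130.4 and 112 CPM in scramble and 119 and 100.2 in shKDM3B, and 22.0 and 11.4 in scramble+ATRA and 17.4 and 16.7 in shKDM3B+ATRA, with overlap in both states. Same-strand exons overlap 30.6% of its exon length. FAM46C, RNF130 and CDK5RAP3 fell, with log2 fold changes of -2.68, -1.80 and -2.65 (SE 0.18, 0.21 and 0.15), with edgeR adjusted p of 3.0e-06, 1.0e-04 and 1.2e-06.

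The last 5 genes were constant regions of T cell receptor genes and non-coding RNAs. TRAC had 10.6 and 13.1 CPM in scramble and 9.77 and 19.0 in shKDM3B but 0.118 and 0.258 in scramble+ATRA and 0.103 and 0.485 in shKDM3B+ATRA. TRDC stood at 20.8 and 23.0 CPM in scramble, 1.90 and 2.93 in scramble+ATRA, 6.84 and 10.4 in shKDM3B and 0.515 and 2.23 in shKDM3B+ATRA, with 38.8% of its exon length under opposite-strand exons. TRDC was lower in the knockdown without ATRA, and the treated groups of both genes overlapped. Of 9 T and NK cell markers 8 were listed, with CD8A at 0, and the 1 that could be tested was not called. They summed to 35.4 to 48.0 CPM in scramble, 19.95 to 24.4 in shKDM3B, 33.2 to 47.2 in scramble+ATRA and 14.7 to 22.7 in shKDM3B+ATRA. Nearly all of this was NKG7, a protein of cytotoxic granules, and the other markers, CD3D, CD3E, CD3G and CD2 among them, summed to at most 1.72 CPM in any library. Their part in the levels of TRAC and TRDC was not tested. TRAC and TRDC fell with ATRA in shKDM3B cells, with log2 fold changes of -5.53 and -2.60 (SE 0.57 and 0.51), with edgeR adjusted p of 4.6e-05 and 0.0023.

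RN7SL1, the RNA of the signal recognition particle, which has many copies in the genome among which reads can be divided, had 16.1 and 9.76 CPM in scramble and 14.7 and 13.2 in shKDM3B and was at 0 in all 4 ATRA-treated libraries. Against 3 counts in each library it was at least 59.4-fold lower with ATRA in scramble and at least 46.5-fold lower in shKDM3B cells. PDXDC2P, a pseudogene, stood at 5.99 and 6.64 CPM in scramble and 7.92 and 5.51 in shKDM3B, at 0 in scramble+ATRA and at 0 and 0.0969 in shKDM3B+ATRA. All of its exon length (100%) lies under same-strand exons of another gene, among them a gene listed only for the treated libraries, so that its loss and the change of annotation cannot be told apart. LINC02204, a long non-coding RNA, had 12.6 and 9.89 CPM in scramble, 0.77 and 0.43 in scramble+ATRA, 7.56 and 9.57 in shKDM3B and 0.206 and 0.582 in shKDM3B+ATRA, and its treated groups overlapped. Over all 99 genes, 11 had more than 10% of their exon length under exons of another gene on either strand. Without them, a setting chosen after the data were seen, 88 of 88 were called lower with ATRA in shKDM3B cells.

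The level that remained with ATRA was then set side by side in knockdown and control cells. These values are descriptions, since the scramble+ATRA libraries had chosen the genes. Both shKDM3B+ATRA libraries lay above both scramble+ATRA libraries for 32 of the 99 genes and below them for 20, and for 47 the groups overlapped. Over 12227 genes tested, 26.8% lay above and 23.5% below. The bases differ, since 29 of the 99 genes were too low for that test, and of the 70 in it 27 lay above (38.6%) and 16 below (22.9%). The median ratio was 0.14 on the log2 scale over these 70 genes, against 0.01 over all genes tested. A gene could pass the filter through the group in which it was high, so neither the counts nor the median over the 70 describe all 99. By role, of all 99 genes, those above and below numbered 5 and 6 of 21 in signalling, 6 and 0 of 13 in the matrix and secreted group, 2 and 1 of 11 in the cytoskeleton, 2 and 2 of 10 in transcription, 4 and 1 of 8 at the surface, 3 and 4 of 8 in metabolism, 4 and 3 of 8 among granule genes and 2 and 2 of 5 in transport. They were 4 and 1 of the 10 without a role here and 0 of the 5 receptor constant regions and non-coding RNAs.

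This median depended on a scramble+ATRA library. Replicate 1, with 9.36% of read pairs outside genes, was above replicate 2, with 50.0%, for 70 of the 99 genes. Without replicate 2 the median was -0.15, and without replicate 1 it was 0.43. Against replicate 2 alone, whose share outside genes was near that of the shKDM3B+ATRA libraries, 53 genes were higher and 23 lower in both knockdown libraries, beside 46.0% and 37.6% of all genes tested. Against replicate 1 alone, 34 were higher and 45 lower, beside 43.7% and 43.9%. Of the 70 genes in that test, 41 (58.6%) were higher and 18 (25.7%) lower than replicate 2, and 29 (41.4%) and 31 (44.3%) than replicate 1. The part of the share outside genes in these differences was not tested.

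Genes that were higher in the knockdown with ATRA included the granule genes MPO, PRSS57, MS4A3 and RNASE3 and the signalling genes GNG4, IRS1, S1PR3, BCL2 and TBC1D4. The 32 also hold ZBTB16, whose libraries had at most 3 counts each in both treated groups, so that it cannot be called higher. Those that were lower included EPX, HDC, CTSG, AHNAK, KCNH2, ASS1, MCAM and C1orf186, with CTSG and ASS1 only slightly below scramble+ATRA replicate 2. The 20 also hold TERT, SOX18 and GRASP, with 2, 1 and 3 counts over both shKDM3B+ATRA libraries. The 32 hold KCNN4, with 7 counts against 3 over both scramble+ATRA libraries, and ANXA8, with 10 against 7. The intervals of the ratio reached past 1 for SOX18, GRASP (0.0723 to 1.59), KCNN4 (0.682 to 17.9) and ANXA8 (0.738 to 6.65). For these genes and TERT no direction is given. Without ATRA, both shKDM3B libraries lay above both scramble libraries for 31 of the 99 genes, beside 19.3% of all genes, and below them for 20, beside 22.0%. The median log2 ratio of the 99 genes was 0.13, against 0.001 over all genes. Of the genes that did not overlap in both states, 14 were above in both, 8 below in both, 5 above without and below with ATRA, and 1, F3, the reverse. Over the 11325 genes tested in both states the shares were 9.18%, 10.3%, 1.43% and 1.90%, and 70 of the 99 genes were among them, with 12, 7, 3 and 1 in the same order. The 5 were AHNAK, CHST13, CTSG, LTK and TERT, the last with the few counts given above. CHST13 and LTK also rest on few counts, 8 and 6 over both shKDM3B+ATRA libraries. Their ratios with ATRA had intervals of 0.142 to 0.789 and 0.112 to 0.828. Spearman's rank correlation between the ratios without and with ATRA was 0.399 over the 70 genes, a description of genes measured in the same libraries.

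**Figure D4:**
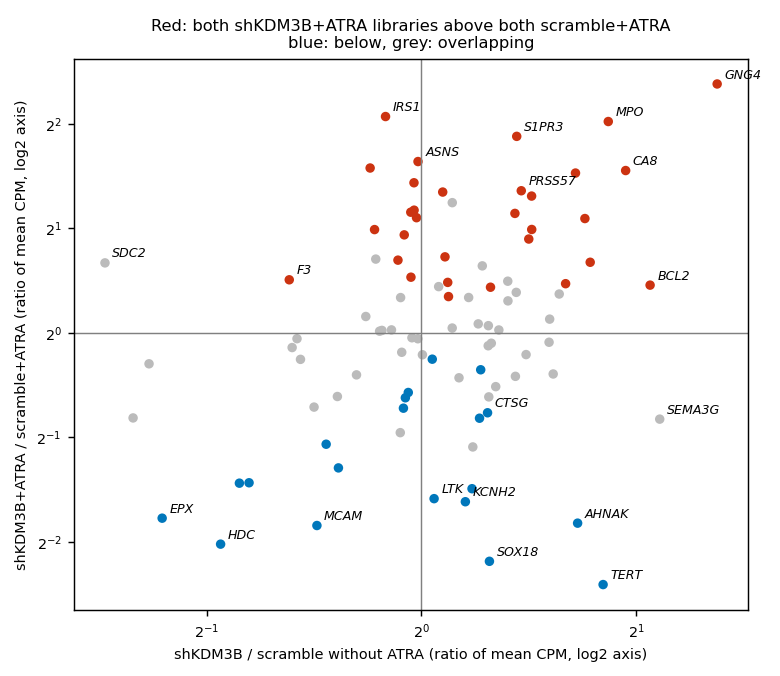
Ratio of mean CPM in shKDM3B to scramble cells without ATRA (horizontal, log2 axis) and with ATRA (vertical, log2 axis) for 95 genes, with lines at a ratio of 1. Red and blue mark genes whose shKDM3B+ATRA libraries both lie above or below both scramble+ATRA libraries, with GNG4 at a ratio of 5.21 the highest red point. The lowest points, TERT and SOX18, rest on 2 and 1 counts.

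Near the threshold, the genes just inside included FGFR1 and CDK5RAP3, whose higher scramble+ATRA library was 19.7% and 19.7% of the lower scramble library. FGFR1, a fibroblast growth factor receptor, had 16.5 and 22.0 CPM in scramble, 3.26 and 0.43 in scramble+ATRA, 17.8 and 24.7 in shKDM3B and 2.16 and 1.65 in shKDM3B+ATRA. Just outside were NCS1, CDC42EP3 and FLT3 at 20.8%, 21.0% and 21.0%. FLT3, the receptor kinase of myeloid progenitors, had 18.9 and 12.7 CPM in scramble, 1.599 and 2.67 in scramble+ATRA, 7.35 and 5.51 in shKDM3B and 2.88 and 2.81 in shKDM3B+ATRA. FLT3 was lower in the knockdown without ATRA. With ATRA both knockdown libraries lay above both controls, but by a small margin over scramble+ATRA replicate 2. NCS1, a calcium sensor, had 50.2 and 67.9 CPM in scramble and 42.7 and 66.2 in shKDM3B, and 10.4 and 8.78 in scramble+ATRA and 9.27 and 8.43 in shKDM3B+ATRA. CDC42EP3 had 93.8 and 73.8 CPM in scramble and 80.3 and 100.7 in shKDM3B, and 15.5 and 13.9 in scramble+ATRA and 8.76 and 8.92 in shKDM3B+ATRA. The threshold thus separated genes with nearly the same loss.

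The remaining gene lists and marker lists are given beside the 99 genes for shKDM3B cells, where 19.7% of all genes tested were called lower and 22.7% higher with ATRA. Of 36 cell cycle genes 35 were tested, 6 were called lower and 1 higher. Of 30 cytokine receptors 17 were tested, with 5 lower and 5 higher, and of 26 adhesion genes 21 were tested, with 4 lower and 10 higher, and none of these 3 lists held any of the 99 genes. The 10 neutrophil markers, MMP9 among them, summed to 151 to 157 CPM in scramble, 89.0 to 94.98 in shKDM3B, 1039 to 1087 in scramble+ATRA and 299 to 317 in shKDM3B+ATRA. Without S100A9, a calcium-binding protein of neutrophil cytosol and their highest gene, they summed to 147.5 to 148.2, 85.8 to 90.95, 537 to 623 and 265 to 272 CPM in the same order. The 10 markers of mast cells, basophils and eosinophils, to which HDC and EPX belong, summed to 355 to 619, 176 to 299, 35.4 to 52.2 and 5.97 to 18.5 CPM in the same order, with FCER1A at 0. HDC and EPX, which were chosen for their fall in control cells, made up most of this sum in the untreated libraries, and the other 8 markers summed to 8.47 to 10.4, 6.51 to 7.15, 10.1 to 29.4 and 3.81 to 7.66 CPM. Of the 3 of these that were tested, 2 were called lower and 1, CLC, higher. Monocyte, erythroid, megakaryocyte and B cell markers stayed at or below 61.3 CPM in sum, with HBB, PF4, MS4A1 and CD163 at 0. Of those tested, 1 of 4, 1 of 2, 0 of 2 and 1 of 3 were lower and 1, 0, 1 and 2 higher.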

How the data were processed

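RNA-seq counts of 8 NB4 libraries (4 groups, 2 replicates each) were analysed. The authors used Trim Galore for trimming, HISAT2 for alignment to hg38 and HTSeq for counting read pairs on genes, and they deposited whole-number counts without normalization, with 5 summary rows per file that were left out of all totals. The labels also name Picard, SAMtools and DESeq2. Gene names follow GENCODE usage, although the methods cite RefSeq. The strand setting of the counting is not given in the sources used here. Columns of other samples numbered 0.

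CPM were computed over all gene rows. shKDM3B+ATRA was compared with shKDM3B with edgeR 4.0.16 (R 4.3.3) on the names common to all files, with TMM scaling after filterByExpr and the quasi-likelihood test, and p-values were adjusted over all 12756 genes tested by the Benjamini-Hochberg method. A gene was called, with the study's thresholds, at a P-value under 0.05 and a fold change of at least 1.5. With 2 libraries a group, 0.333 is the smallest two-sided p of an exact permutation test. The genes and all lists were chosen with earlier results of these data known, and roles were assigned from textbook knowledge once the genes were known. Named are the 3 genes with the highest mean in scramble cells in each role, the 8 with the highest and the 8 with the lowest share left in shKDM3B cells, the 5 with the highest and the 5 with the lowest ratio with ATRA, those at the threshold (1 is not reported here), those on a list, and KDM3B; others named (such as MS4A3, F3, BCL2, ZBTB16, KLF4 and AFF2) were chosen after their values were seen. Levels of 0 were set against 3 counts in each library, and intervals leave out all but counting error, there being no molecular identifiers.

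GENCODE v44, in which all 99 genes were found, gave positions and overlaps of exons, and RefSeq gave promoters. Whether replicate numbers pair the libraries was checked as the correlation of same-numbered deviations from group means, which was 0.159 over 11640 genes whose mean was 20 counts or more. With only 2 pairs, the numbers were not taken as pairing. The procedure was tested on simulated data for shKDM3B+ATRA against shKDM3B, with 200 of 12756 genes changed 3-fold, of which 94% were called, as were 1.92% of unchanged genes. Alternatives were other scalings, filters and thresholds, DESeq2 1.42.0, all 8 libraries in 1 fit, a replicate block and each library left out. Tables were computed with numpy 2.4.6, pandas 2.3.3 and scipy 1.17.1 under Python 3.11.15.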

Additional observations from a re-analysis of the deposited data

How the results depend on the processing

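The number of genes that met the rule depended on its limits. It was 157 with a minimum of 1 CPM, 42 with at least 10-fold in place of 5-fold below the lower scramble library, and 112 to 150 with either scramble+ATRA library left out (150 without replicate 1). It stayed within 1.5 times 99 with TMM-scaled CPM (89), totals over common names (98), a minimum of 10 CPM (75), at least 4-fold (125) and clone names kept (111). All 99 genes were called lower with ATRA in shKDM3B cells under every scaling, filter and tool run, and the median log2 fold change was -3.68 with DESeq2's size factors, -3.75 with library size alone and -3.88 to -3.51 with a library left out. The replicate numbers were shared by only 2 pairs of libraries. Adding a replicate block to the fit gave 99 calls and a median of -3.71 and changed no call. The median ratio of shKDM3B+ATRA to scramble+ATRA reversed to -0.15 without scramble+ATRA replicate 2, and was -0.15 to 0.43 over all libraries left out. The number of genes higher in shKDM3B+ATRA was 34 without scramble+ATRA replicate 2 and 53 without replicate 1, an alternative added after seeing the data. Over all genes tested the shares higher were 43.7% and 46.0% in the same order, against 26.8% with both libraries, so they rose for all genes too. The cause was not tested. Depth limits the lowest genes, since 3 counts were 0.178 to 0.309 CPM in the treated libraries.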

Other observations

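Azurophil granule genes outside the 99 moved in both directions with ATRA in shKDM3B cells. BPI, the bactericidal protein that binds endotoxin, stood at 0.103 and 0.303 CPM in shKDM3B and at 36.7 and 36.2 in shKDM3B+ATRA, and it rose from 0.203 and 0.211 CPM in scramble to 55.7 and 52.1 in scramble+ATRA. DEFA4, a defensin, had 10.4 and 6.63 CPM in shKDM3B and 210.2 and 192 in shKDM3B+ATRA, a log2 fold change of 4.62 (SE 0.21). CTSD, the lysosomal protease cathepsin D, had 31.4 and 43.8 CPM in shKDM3B and 279 and 410 in shKDM3B+ATRA, a log2 fold change of 3.23 (SE 0.23). RNASE2, the eosinophil-derived neurotoxin, fell by 1.94 on the log2 scale (SE 0.19), from 86.8 and 118 CPM to 23.1 and 28.9, and was lower in shKDM3B than in scramble cells both without and with ATRA. These genes were chosen after their values were seen.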
